A study of Mus musculus with 4 samples.

Results

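The genes described here are 39 mouse genes of the autophagy machinery, taken by symbol from a ribosome profiling count table of 22417 genes. They comprise the ULK initiation complex, the class III phosphatidylinositol 3-kinase (PI3-kinase) complexes, the factors that supply membrane to the growing autophagosome, the conjugation enzymes, the Atg4 proteases, the Atg8 family and the cargo receptors. All 39 had a row in the table, 37 had at least 1 count and 33 had enough counts to be tested. The cells were monocytes grown from mouse bone marrow, either wild type (WT) or labelled as a conditional knockout (cKO) of Nat10, with 2 libraries each. Nat10 encodes the enzyme that writes N4-acetylcytidine into RNA. Every culture, WT included, had received RANKL, the cytokine that drives monocytes towards bone-resorbing osteoclasts, for 3 days. The sources used here do not give the Cre driver, the deleted part of Nat10 or the age and sex of the mice, and the labels do not say that libraries came from separate animals. The p-values therefore measure only the spread between these libraries, which may be technical.

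Autophagy carries cytoplasmic material to the lysosome in a double-membraned vesicle, the autophagosome. The ULK kinase complex starts the process, a class III PI3-kinase marks the site with phosphatidylinositol 3-phosphate, and lipid transfer proteins feed the membrane. A ubiquitin-like conjugation system then attaches Atg8 proteins (the LC3 and GABARAP proteins) to that membrane, where receptors such as p62 tether their cargo. In osteoclasts, parts of the same conjugation system also act in the secretion of lysosomal contents at the ruffled border, the membrane that faces bone. A ribosome footprint count reflects both the amount of an mRNA and its translation, and no matched RNA measurement was used here. In bulk cultures, fewer cells of a type and less RNA per cell cannot be told apart.

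The libraries held 906937 to 3014620 counts and were not alike. WT replicate 2 had the most counts but covered only 9402 genes, where the others covered 10508 to 10798. Its log2 CPM (counts scaled to the TMM-adjusted library total) correlated with the other libraries at 0.75 to 0.79, against 0.92 between the cKO libraries. WT replicate 1 correlated more closely with the cKO libraries (0.86 and 0.87) than with WT replicate 2 (0.79). Nat10 itself was counted 101 and 72 times in cKO against 77 and 148 times in WT, or 58.9 ± 14.7 against 67.8 ± 24.2 CPM (SD, n = 2 each), with a log2 fold change of -0.18 (95% interval -1.11 to 0.74, adjusted p = 0.907, edgeR). The genotype labels are therefore not checked by these counts, and cKO below means the libraries so labelled. Marker genes of osteoclasts and macrophages were present in all libraries, with summed levels of 7930 and 8555 CPM in cKO against 12580 and 13370 in WT for 9 osteoclast genes, and of 35000 and 39600 against 53640 and 68720 CPM for 8 monocyte and macrophage genes. The summed level of 13 stromal and osteoblast markers was 938 and 1001 CPM in cKO against 5949 and 7380 in WT, with Thy1 at 0 in every library. Neutrophil markers summed to 707 and 754 against 1097 and 1366 CPM (Ly6g at 0), lymphocyte markers to at most 7.42 CPM (6 of 7 at 0) and the 6 erythroid markers were all at 0. The sums are carried by the genes with the most counts (Lyz2 and Adgre1 among the macrophage markers), and single markers went both ways. The log2 fold change was negative for 8 of 9 osteoclast markers, 5 of 8 macrophage markers and 9 of 11 tested stromal markers, with medians of -0.65, -0.31 and -2.08. These summed levels moved with genotype beside every result below, and their part in the autophagy genes was not tested.

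No autophagy gene passed the test over all genes. Of the 33 tested, 0 had an adjusted p under 0.05 in edgeR's quasi-likelihood test (Benjamini-Hochberg over 7953 genes), where 1.4% of all genes tested did (111 genes). DESeq2 called 2 (4.97% of the genes with an adjusted p there) and limma-voom 5 (8.69% of all genes). At an unadjusted p under 0.05 there were 7 (21.2% of those tested), beside 12.1% of all genes: 4 were higher in cKO (Sqstm1, Gabarap, Tax1bp1 and Atg3; 12.1%, against 5.63% of all genes) and 3 lower (Bnip3, Atg16l1 and Ulk1; 9.09%, against 6.5%). The groups did not overlap for 19 of the 33 (57.6%), beside 45.2% of all genes: 10 were higher in cKO (30.3%, against 22.7%) and 9 lower (27.3%, against 22.6%). The log2 fold change was positive for 18 (54.5%, against 49.5%). The median log2 fold change (cKO minus WT) was 0.05, against -0.01 over all genes, with quartiles at -0.53 and 0.49 against -0.50 and 0.47. As a set, the genes thus spread about 0 much as the whole table did, and the values below are those of single genes.

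**Figure D1:**
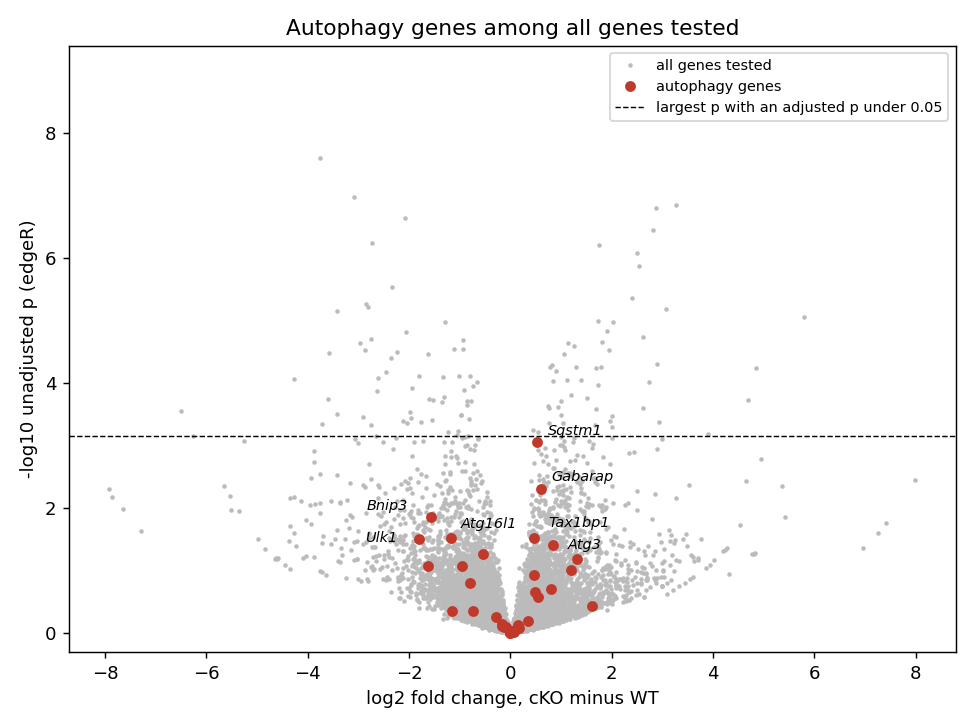
Each point is a gene, with its log2 fold change (cKO minus WT) on the horizontal axis and -log10 of its unadjusted edgeR p on the vertical axis; grey points are the 7953 genes tested and red points the 33 autophagy genes. Sqstm1 lies just under the dashed line, which marks the largest p that passed the adjusted threshold of 0.05, and no red point lies above it.

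The cargo receptors held the gene nearest to the threshold, Sqstm1. It encodes p62, a receptor that binds ubiquitin on its cargo and Atg8 proteins on the membrane, and lies on chromosome 11 (50090193 to 50101654, minus strand, GRCm39; ENSMUSG00000015837). It stood at 4870 CPM in cKO replicate 1 and 5134 CPM in cKO replicate 2, against 3271 and 3662 CPM in the WT libraries. Both cKO libraries were above both WT libraries, by more than the spread within either pair. The means were 5002 ± 187 and 3467 ± 276 CPM (SD, n = 2 each), a 1.44-fold difference (log2 0.53, SE 0.11, 95% interval 0.29 to 0.77), with an unadjusted p of 0.000865 and an adjusted p of 0.0533 by edgeR. The fold kept its size whichever library was left out (log2 0.49 to 0.63), but the edgeR adjusted p did not. It was 2.94e-06 without WT replicate 2, 0.000184 without WT replicate 1, 0.116 without cKO replicate 1 and 0.235 without cKO replicate 2.

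Tax1bp1, a ubiquitin-binding receptor that also restrains inflammatory signalling, was the other receptor with higher values in cKO at an unadjusted p under 0.05. It lies on chromosome 6 (52690714 to 52743765, plus strand; ENSMUSG00000004535) and stood at 390 and 451 CPM in cKO and at 311 and 297 CPM in WT, so that the groups again did not overlap (1.38-fold, log2 0.47, SE 0.18, unadjusted p = 0.0291, adjusted p = 0.335, edgeR). For Nbr1, the receptor most like p62 in its domains, the groups overlapped. Its level was 118 and 183 CPM in cKO, on both sides of 151 and 150 CPM in WT, and its log2 fold change was 0.00 with a 95% interval from -0.65 to 0.65, which holds the values of Sqstm1 and Tax1bp1. Optn, a receptor of bacteria and damaged mitochondria, had 45.3 and 41.8 CPM against 47.4 and 49.7 (log2 -0.16, SE 0.40).

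Bnip3, a receptor on the outer mitochondrial membrane that hypoxia induces, was the receptor with the largest difference. It lies on chromosome 7 (138492565 to 138511248, minus strand; ENSMUSG00000078566) and had 17.8 and 21.6 CPM in cKO against 40.8 and 74.1 in WT. The WT libraries were both higher but far apart. The log2 fold change was -1.56 (SE 0.50, unadjusted p = 0.0136, adjusted p = 0.233, edgeR), and -1.03 without WT replicate 2. Its relative Bnip3l, the mitophagy receptor of maturing red cells, had few counts (11 and 11 in cKO, 1 and 36 in WT; log2 0.08, SE 1.47). Calcoco1, a receptor for the endoplasmic reticulum and Golgi, had values of 24.0 and 21.6 CPM in cKO against 43.0 and 44.9 in WT, with little spread within either pair (log2 -0.95, SE 0.48, unadjusted p = 0.0835, adjusted p = 0.478, edgeR).

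The make-up of the receptor counts within each library needs no scaling between libraries. Sqstm1 took 89.0% and 87.6% of the counts of the 7 receptors in cKO replicates 1 and 2, and 84.6% and 85.4% in WT replicates 1 and 2. The exact 95% binomial intervals of the cKO libraries (88.3 to 89.7 and 86.9 to 88.3) lay above those of the WT libraries (83.4 to 85.8 and 84.7 to 86.0). Bnip3 took 0.326% and 0.368% in cKO against 1.06% and 1.73% in WT, again with intervals that did not meet (0.213 to 0.477 and 0.252 to 0.519, against 0.744 to 1.45 and 1.51 to 1.97). Tax1bp1 took 7.13% and 7.69% in cKO and 8.05% and 6.92% in WT, which overlap. The shares depend on each other: where Sqstm1 takes more, the other receptors take less. Nbr1 took 2.16% and 3.13% in cKO against 3.91% and 3.49% in WT, though its log2 fold change was 0.00. The share of Bnip3 is therefore not independent of that of Sqstm1. Its CPM, which does not rest on the receptor sum, was lower in cKO too (log2 -1.56). The intervals cover counting error only, and with 2 libraries against 2 an exact two-sided permutation test cannot give a p below 0.333.

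**Figure D2:**
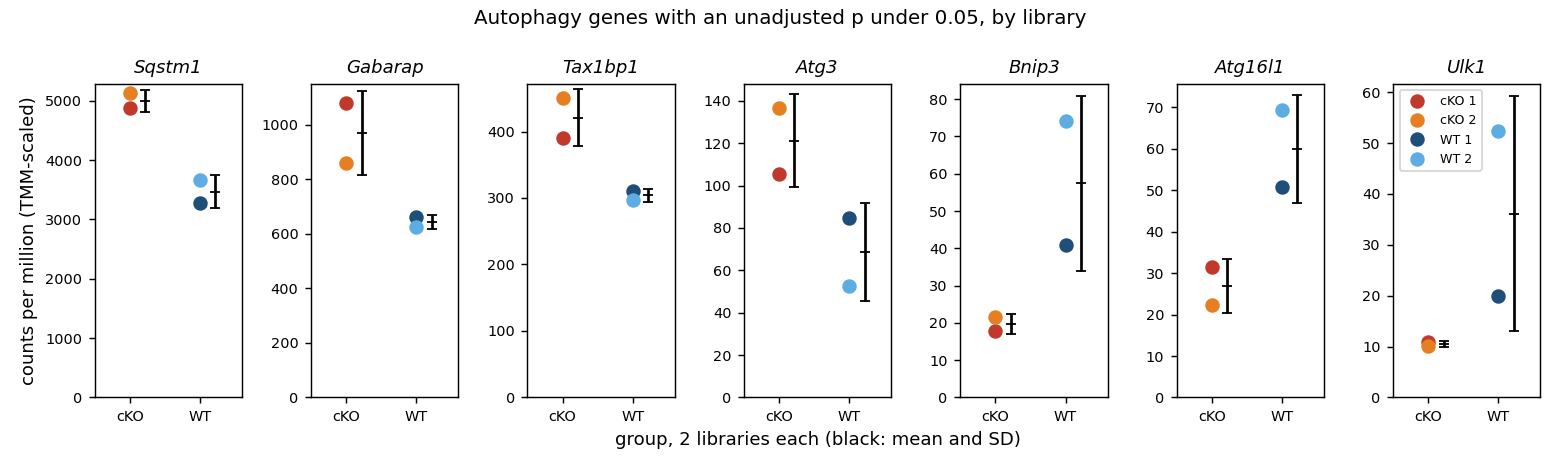
Level of the 7 autophagy genes with an unadjusted p under 0.05, in CPM (counts scaled to the TMM-adjusted library total), with 1 point per library and the mean and SD of the 2 libraries of each group in black. The groups are apart in every panel, and the WT libraries lie far from each other for Bnip3 (40.8 and 74.1) and Ulk1 (19.9 and 52.5).

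Of the 5 Atg8 family genes, Gabarap was higher in cKO and the rest could hardly be compared. Gabarap encodes the namesake of the GABARAP branch, which acts late in autophagosome formation, and lies on chromosome 11 (69881969 to 69885777, plus strand; ENSMUSG00000018567). Its values were 1080 and 862 CPM in cKO, against 661 and 625 CPM in WT. Both cKO libraries were above both WT libraries, with means of 971 ± 155 and 643 ± 25.3 CPM (SD, n = 2 each), a 1.51-fold difference (log2 0.60, SE 0.16, unadjusted p = 0.00481, adjusted p = 0.144, edgeR). The log2 fold change was 0.45 to 0.77 with single libraries left out, with an edgeR adjusted p of 0.00011 without WT replicate 1, 0.00585 without WT replicate 2, 0.189 without cKO replicate 2 and 0.9999 without cKO replicate 1. Gabarapl1, its nearest relative, had 51.4 and 47.2 CPM in cKO, between 36.4 and 82.0 CPM in the WT libraries (log2 -0.29, SE 0.46), and its sign turned without WT replicate 2 (log2 0.45). Within the counts of the 5 Atg8 genes, Gabarap took 95.22% and 94.18% in cKO and 93.45% and 88.32% in WT. The exact 95% binomial interval of WT replicate 1 (91.25 to 95.24) overlapped those of both cKO libraries (94.08 to 96.2 and 92.8 to 95.36).

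The LC3 genes, and Gabarapl2 of the GABARAP branch, had few or no counts. Map1lc3b, the gene of the LC3B protein most used to mark autophagosomes, and Gabarapl2 were listed at 0 in all 4 libraries, and Map1lc3a had 4 and 9 counts in cKO and 9 and 2 in WT. A listed 0 does not show that a gene was not translated, since Gapdh, which every cell uses, had 6 counts in the whole table and the ribosomal protein gene Rpl13 had 2 (both named after their values were seen). In the table's annotation Map1lc3b (chromosome 8, 122317100 to 122325499, plus strand) also lies wholly inside Galnt2l on the same strand. Of the 379 protein-coding genes so placed, 61.5% had no count, against 42.7% of the other 21455. Whether this placement bears on the 0 of Map1lc3b was not tested. Gabarapl2 overlaps no other gene of the table. The sources used here do not say how reads that match several genes were counted, so the Atg8 family, whose members resemble each other, is uncertain as a whole.

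Sqstm1 and Gabarap made up most of the difference in the summed level of the 39 genes. The set took 0.771% and 0.796% of all counts in cKO replicates 1 and 2, and 0.568% and 0.594% in WT replicates 1 and 2. Without Sqstm1 the shares were 0.287% and 0.281% against 0.241% and 0.240%. Without both genes they were 0.180% and 0.195% in cKO and 0.175% and 0.180% in WT, where cKO replicate 1 and WT replicate 2 did not differ at this precision.

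**Figure D3:**
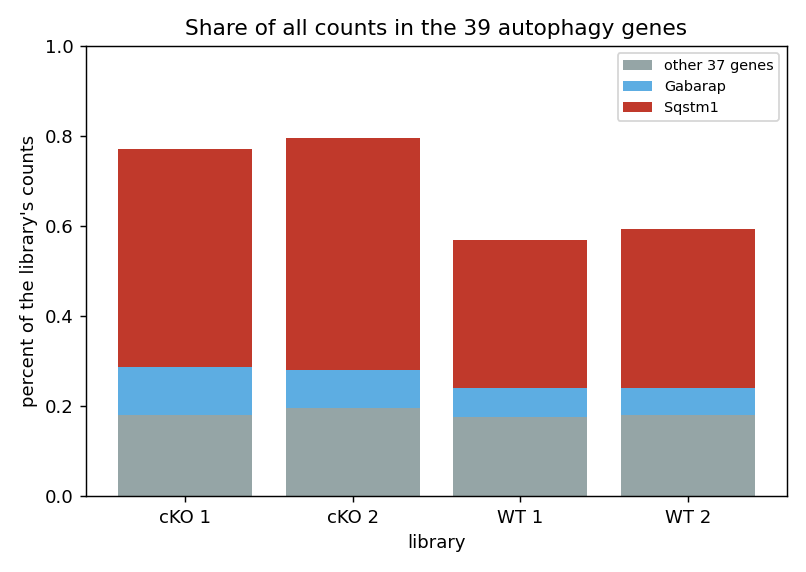
Each bar is a library, and its height is the percent of that library's counts in the 39 autophagy genes, split into Sqstm1, Gabarap and the other 37. The cKO bars reach 0.771% and 0.796% and the WT bars 0.568% and 0.594%, while the grey part spans 0.175% to 0.195%.

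The conjugation machinery was split. Atg3, the E2-like enzyme that hands Atg8 proteins to their lipid, had 106 and 137 CPM in cKO, against 84.9 and 52.5 CPM in WT (log2 0.84, SE 0.35, unadjusted p = 0.0383, adjusted p = 0.370, edgeR). It lies on chromosome 16 (44979148 to 45008901, plus strand; ENSMUSG00000022663). Atg7, the E1-like enzyme that activates them, had values of 131 and 150 CPM in cKO against 110 and 93.6 in WT. For both enzymes the cKO libraries were the higher ones, and for Atg7 the difference did not reach an unadjusted p under 0.05 (log2 0.47, SE 0.27, unadjusted p = 0.118, adjusted p = 0.538, edgeR). Atg16l1, which directs the conjugate to the membrane, was the gene of this group with lower values in cKO at an unadjusted p under 0.05. It lies on chromosome 1 (87683592 to 87720150, plus strand; ENSMUSG00000026289) and had 31.5 and 22.2 CPM in cKO against 50.7 and 69.3 CPM in WT (log2 -1.17, SE 0.45, unadjusted p = 0.0301, adjusted p = 0.340, edgeR). Within the counts of the 6 conjugation genes, Atg16l1 took 8.95% and 5.55% in cKO and 15.6% and 21.0% in WT. The interval of cKO replicate 1 (6.63 to 11.8) just met that of WT replicate 1 (11.7 to 20.3). Atg3 took 29.96% and 34.12% in cKO and 26.19% and 15.89% in WT. Its interval in WT replicate 1 (21.26 to 31.61) overlapped those of both cKO libraries (26.03 to 34.13 and 30.31 to 38.08).

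The partners of Atg16l1 had log2 fold changes near 0 (Atg5 -0.17, SE 0.57, and Atg12 0.05, SE 0.49). Atg5 had 43.9 and 47.9 CPM in cKO, between 22.1 and 78.2 CPM in the WT libraries, and Atg12, the ubiquitin-like protein joined to it, had 35.0 and 41.1 CPM, between 47.4 and 27.1 CPM. Atg10, the E2-like enzyme that joins them, had 8 and 4 counts in cKO and 8 and 28 in WT (log2 -1.16, SE 1.45). The sign for Atg5 turned from -0.17 to 1.07 without WT replicate 2, the library with the high value.

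Among the Atg4 proteases, which trim Atg8 proteins before conjugation and free them afterwards, the 2 tested genes had positive log2 fold changes and neither was called. Atg4b had 50.1 and 62.7 CPM in cKO, against 26.5 and 49.4 CPM in WT (log2 0.54, SE 0.45, adjusted p = 0.692, edgeR). Atg4c had 30.9 and 14.8 CPM against 22.1 and 14.1, with overlapping groups. Atg4d had 8 and 6 counts in cKO and none in either WT library. With the WT group at a floor of 3 counts and the cKO counts as exact, Atg4d would be at least 6.06-fold higher in cKO. This is a bound from few counts and not a measured fold. With no filter on low counts, Atg4d had an adjusted p of 0.590 (unadjusted p = 0.0863, edgeR). Atg4d also overlaps Kri1 on the other strand by 4316 bases, and without the strand setting the reads of such a pair cannot be told apart. Kri1 had 116 and 80 counts in cKO and 71 and 224 in WT. Atg4a had 1 and 2 counts in cKO and none in WT. The summed level of the 4 genes was 87.1 and 82.9 CPM in cKO against 48.5 and 63.5 in WT.

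The subunits of the ULK initiation complex lay on both sides of 0. Ulk1, its kinase, had values of 10.97 and 10.1 CPM in cKO against 19.9 and 52.5 in WT, from 16 and 15 counts against 18 and 153. It lies on chromosome 5 (110932354 to 110957963, minus strand; ENSMUSG00000029512). The cKO libraries lay close together and below both WT libraries (log2 -1.80, SE 0.70, unadjusted p = 0.0306, adjusted p = 0.341, edgeR), but the size leaned on WT replicate 2, and without it the log2 fold change was -0.89 (adjusted p = 0.693). With the replicate block its unadjusted p was 0.0546 (edgeR, log2 -1.64). Ulk2, the second kinase gene, had 5 and 8 counts in cKO and 0 and 45 in WT, the same library being high, and was not tested.

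Of the other subunits tested, Rb1cc1 and Atg101 had positive log2 fold changes. Rb1cc1, the gene of the FIP200 scaffold, had 50.1 and 33.0 CPM in cKO, against 27.6 and 10.3 CPM in WT (log2 1.19, SE 0.64, adjusted p = 0.501, edgeR), and log2 values of 0.60 without WT replicate 2 and 2.04 without WT replicate 1. Atg101 had 40.5 and 52.6 CPM against 39.7 and 15.4 (log2 0.80, SE 0.57, and 1.62 without WT replicate 1), with WT replicate 2 again the library apart. Atg13, which joins the kinase to the scaffold, had 39.1 and 48.5 CPM in cKO, between 59.6 and 37.4 CPM in the WT libraries (log2 -0.13, SE 0.44). Within the complex, Ulk1 took 7.62% and 6.76% of the counts in cKO, 13.5% in WT replicate 1 and 40.1% in WT replicate 2. The interval of WT replicate 1 (8.22 to 20.5) overlapped those of both cKO libraries (4.42 to 12.1 and 3.83 to 10.9).

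Of the 6 genes of the class III PI3-kinase complexes, 5 had a positive log2 fold change and none reached an unadjusted p under 0.05. Pik3c3, the lipid kinase Vps34, had values of 63.8 and 67.4 CPM in cKO against 51.8 and 42.2 in WT (log2 0.49, SE 0.37), with the cKO libraries the higher ones. Pik3r4, its regulatory subunit Vps15, had 53.5 and 39.1 CPM against 40.8 and 42.5, which overlap. Becn1, the scaffold Beclin 1, had 44.6 and 39.1 CPM in cKO, between 50.7 and 34.3 CPM in WT (log2 -0.01, 95% interval -1.03 to 1.01). Uvrag, the subunit of the endosomal form of the complex, had 61.0 and 26.3 CPM in cKO, both above the 22.1 and 13.7 CPM in WT (log2 1.31, SE 0.62, unadjusted p = 0.0638, adjusted p = 0.445, edgeR), and its log2 fold change was 0.59 without cKO replicate 1. Atg14, that of the autophagy-specific form, had 29 and 16 counts in cKO and 10 and 0 in WT, and Ambra1, a regulator of the complex, differed by 0.05 on the log2 scale.

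Of the 6 membrane supply genes, 5 had a negative log2 fold change and none was at an unadjusted p under 0.05. Vmp1, a lipid scramblase of the endoplasmic reticulum, had 143 and 171 CPM in cKO, against 203 and 250 CPM in WT. The groups did not overlap (log2 -0.53, SE 0.24, 95% interval -1.08 to 0.01, unadjusted p = 0.0542, adjusted p = 0.423, edgeR). Wipi1, which reads phosphatidylinositol 3-phosphate, had values of 6.17 and 8.76 CPM in cKO against 16.5 and 29.1 in WT (log2 -1.62, SE 0.83), from 9 and 13 counts against 15 and 85. Its relative Wipi2, which recruits Atg16l1, was at 9.60 and 13.5 CPM against 7.72 and 29.8, and its sign turned without WT replicate 2 (log2 -0.74 to 0.59). The lipid transfer gene Atg2a stood at 85.1 and 61.3 CPM in cKO, on both sides of the WT values of 80.5 and 75.8 (log2 -0.09, SE 0.33). Its relative Atg2b had a log2 fold change of -0.80 (SE 0.52), and the scramblase gene Atg9a one of 0.18 (SE 0.74). The summed level of the 6 genes was 284 and 304 CPM in cKO against 363 and 454 in WT. Vmp1 was the largest part of these sums, with means of 157 CPM in cKO and 227 in WT.

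**Figure D4:**
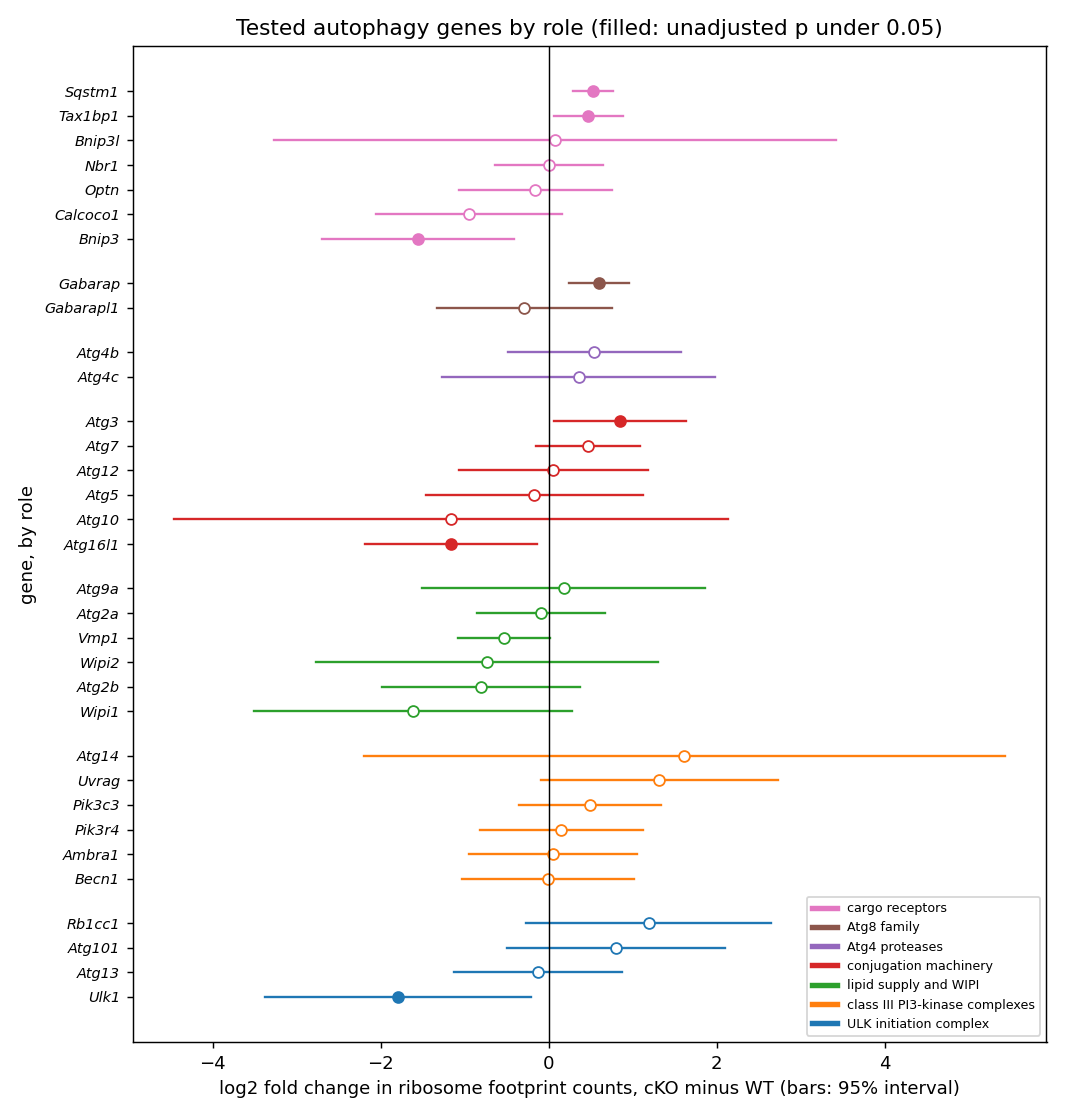
Log2 fold change (cKO minus WT) of the 33 tested autophagy genes on the horizontal axis, with 95% intervals from the edgeR fit, grouped and coloured by role; filled points have an unadjusted p under 0.05. Filled points lie on both sides of 0 within the cargo receptors and within the conjugation machinery, and intervals range from narrow (Sqstm1, 0.29 to 0.77) to wide (Bnip3l, -3.27 to 3.42).

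Promoter sequences are shown for Sqstm1 and Gabarap, the genes with the smallest unadjusted p among those with higher values in cKO, for Bnip3, that with the smallest among those with lower values, and for Atg3, whose window holds the same motif as that of Bnip3. They come from RefSeq (GRCm38.p6, a different build from the gene positions above) and run from 250 bases before to 50 bases after the annotated start, 5′ to 3′ on the gene's strand. They lie at chr11:50210771-50211070 (Sqstm1, minus strand), chr11:69991120-69991419 (Gabarap, plus strand), chr16:45158579-45158878 (Atg3, plus strand), chr7:138909457-138909756 (Bnip3, minus strand). Capitals mark CACGTG, the E-box core that TFEB, TFE3 and MITF, the transcription factors of lysosomal and autophagy genes, are known to bind. It reads the same on both strands.
Sqstm1: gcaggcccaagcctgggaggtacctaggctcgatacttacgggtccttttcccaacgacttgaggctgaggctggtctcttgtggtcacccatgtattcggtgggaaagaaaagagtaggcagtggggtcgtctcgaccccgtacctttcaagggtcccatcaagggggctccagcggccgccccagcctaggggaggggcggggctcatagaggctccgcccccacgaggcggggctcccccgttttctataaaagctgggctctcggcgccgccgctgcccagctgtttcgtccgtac
Gabarap: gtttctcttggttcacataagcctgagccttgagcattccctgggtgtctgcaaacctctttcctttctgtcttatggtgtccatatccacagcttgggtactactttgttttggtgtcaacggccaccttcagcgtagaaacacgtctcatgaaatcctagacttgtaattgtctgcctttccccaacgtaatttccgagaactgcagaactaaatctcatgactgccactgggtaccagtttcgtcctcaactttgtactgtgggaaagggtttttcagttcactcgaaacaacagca
Atg3: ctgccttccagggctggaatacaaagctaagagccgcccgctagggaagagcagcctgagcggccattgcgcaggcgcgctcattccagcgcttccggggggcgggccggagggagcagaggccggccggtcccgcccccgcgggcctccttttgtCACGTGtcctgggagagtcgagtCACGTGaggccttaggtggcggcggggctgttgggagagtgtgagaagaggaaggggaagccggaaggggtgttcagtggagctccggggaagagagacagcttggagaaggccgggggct
Bnip3: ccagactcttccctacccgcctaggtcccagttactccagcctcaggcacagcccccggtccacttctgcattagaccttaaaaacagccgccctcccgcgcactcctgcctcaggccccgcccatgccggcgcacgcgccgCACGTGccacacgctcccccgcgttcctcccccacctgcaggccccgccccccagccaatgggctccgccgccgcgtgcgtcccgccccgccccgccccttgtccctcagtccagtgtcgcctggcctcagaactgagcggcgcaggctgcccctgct
Atg3 holds the motif at bases 157 and 180 of its window and Bnip3 at base 143. Because Atg3 was chosen for the shared motif, the pair does not show whether the motif goes with a direction of change. No CACGTG lies in the windows of Sqstm1 and Gabarap. Of the 39 genes, 32 matched the promoter table with 38 windows, of which 5 (13.2%) held CACGTG, those of Atg3, Atg5, Atg7, Atg14 and Bnip3, against 7.15% of all 32851 windows. TGACNNNGC, the core of the antioxidant response element that Nrf2 binds, was searched on both strands and lay in 7 of the 38 windows (18.4%), of 5 genes (Atg13, Map1lc3b, Tax1bp1, Ulk2 and Vmp1), against 12.4% of all windows. None of the 4 printed windows holds it. A match of letters is a description and not a binding site, and a window without it says nothing about the factor.

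Beyond these genes, 72 others of the pathway were read from the same fit, in a list that covers nutrient sensing, further phagophore and receptor factors and fusion with the lysosome. Of the 64 tested, 0 passed the adjusted threshold in edgeR and 0 had an unadjusted p under 0.05, beside 12.1% of all genes, while DESeq2 called 0 and limma-voom 3 (Atf4, Vamp8 and Vps16, all higher, named after their values were seen), where 8.69% of all genes passed in limma-voom. Their median log2 fold change was -0.19. The smallest p-values belonged to Rragc, a GTPase that brings mTORC1 to the lysosome, Sh3glb1, a membrane-bending partner of the PI3-kinase complex, Rab7, the GTPase of late endosomes, and Sesn2, an inhibitor of mTORC1. Rragc had 117 and 82.2 CPM in cKO and 138 and 177 in WT (log2 -0.67, SE 0.30, unadjusted p = 0.0513, edgeR). Sh3glb1 (log2 0.43, SE 0.20), Rab7 (log2 0.45, SE 0.22) and Sesn2 (log2 0.95, SE 0.48) were higher in both cKO libraries than in both WT libraries. In the deposited pathway annotation, a list read after the data were seen, 98 further genes carry the term Autophagy - animal. Of the 76 tested, 0 passed in edgeR and 4 had an unadjusted p under 0.05 (5.26%). Rab1a, a GTPase of traffic from the endoplasmic reticulum, came nearest to the threshold, with 414 and 399 CPM in cKO against 228 and 173 in WT (log2 1.03, SE 0.21, adjusted p = 0.0563, edgeR).

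Which libraries entered the test decided how many of the genes were called. Without WT replicate 2, 2 passed, Sqstm1 and Gabarap, both higher in cKO (5.48% of all genes passed there). Without WT replicate 1, 12 passed, among 27.4% of all genes: Sqstm1, Gabarap, Tax1bp1, Atg3, Atg101, Rb1cc1, Atg14 (against 0 counts in the remaining WT library) and Uvrag were higher and Bnip3, Atg16l1, Ulk1 and Vmp1 lower. In both of these fits the spread came from the cKO pair alone, and the lone WT library was assumed to vary as that pair did. Between replicates, the median absolute log2 ratio of the 33 genes was 0.32 in the cKO pair and 0.55 in the WT pair, beside 0.36 and 0.62 over all genes. Without cKO replicate 1, 0 passed in edgeR (0.827% of all genes passed) and 1 had an unadjusted p under 0.05 (5.09% of all genes). Without cKO replicate 2, 0 passed (0.926%) and 4 had an unadjusted p under 0.05 (6.09%). Without WT replicate 1 the latter count was 15 (39.4% of all genes), and without WT replicate 2 it was 4 (16.3%).

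The count also moved with other settings of the test. With total counts as the only scaling, Sqstm1 alone passed (1.35% of all genes), and with no filter on low counts Sqstm1 and Gabarap did (2.91%), as they did in DESeq2. Limma-voom called Atg3, Rb1cc1 and Bnip3 besides, and had 11 at an unadjusted p under 0.05 (23.9% of all genes). With DESeq2 size factors (1.35% and 12.2% of all genes at the adjusted and unadjusted thresholds), upper-quartile factors (1.4% and 12.2%), the filter at 10 CPM (1.4% and 12.9%) and the replicate block (1.8% and 11.2%), 0 passed in edgeR, with 6 or 7 at an unadjusted p under 0.05. That count was 7 with total counts (12.1% of all genes), 8 with no filter (10.8%) and 5 in DESeq2 (10.1%).

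**Figure D5:**
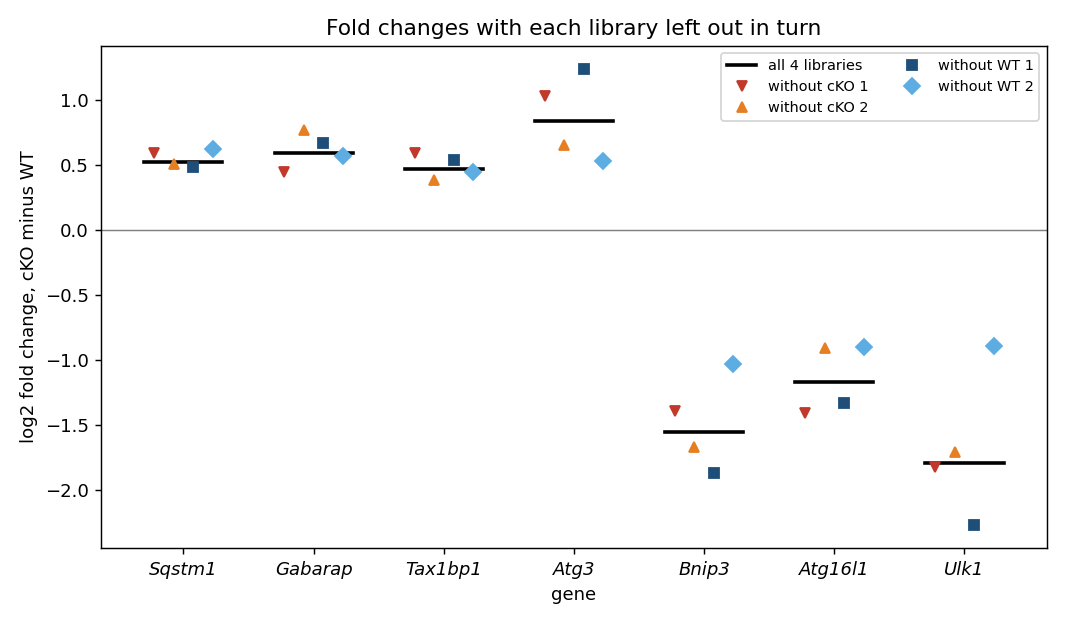
Log2 fold change (cKO minus WT) of the 7 genes with an unadjusted p under 0.05, with all 4 libraries (black line) and with each library left out in turn (symbols). Sqstm1 stays between 0.49 and 0.63, while Ulk1 moves between -2.27 and -0.89 and Bnip3 between -1.87 and -1.03.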

How the data were processed

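Ribosome-protected fragments were counted per gene in 4 libraries. The authors deposited raw counts in 1 table, per the file headers. Fastp, Bowtie, STAR, HTSeq and GRCm39 (mm39) appear, per the submitters' processing notes, without version or role, and per the labels' protocols ribosomal RNA was depleted and a small-RNA kit was used. The sources used here do not give the region counted, the footprint lengths, the strand setting or the handling of multi-mapping reads. Each count column matched 1 sample description, and 0 other columns of per-sample values were found.

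All genes were fitted with edgeR 4.0.16 (R 4.3.3): filterByExpr (minimum count 10, minimum total 15), TMM factors, robust quasi-likelihood fit, genotype as the only term, Benjamini-Hochberg over 7953 genes and a threshold of 0.05. CPM uses TMM-scaled totals. Log2 fold changes are cKO minus WT. Because gene length was not used, shares, sums and rankings by CPM describe counts, not relative levels of different genes. Alternatives used other scalings and filters, DESeq2 1.42.0, limma-voom (limma 3.58.1), a replicate block and each library left out. No pairing was assumed, because the labels do not say that equal numbers pair libraries. The deviations of same-numbered libraries correlated at -0.02 over 7953 genes, which with 2 libraries per group cannot exclude a pairing. Total counts per library (906937 to 3014620) limit precision for genes with few counts. The pipeline was tested on simulated counts.

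The 39 genes, the further lists and the tests were chosen with earlier results of these data known. Values in every library are given for genes with an unadjusted p under 0.05 and, by role, those with the highest mean CPM; others shown were chosen after their values were seen. Of the further pathway genes the 4 with the smallest p are named. Of the genes in the deposited pathway annotation, only the one nearest to the threshold is named, and others are not reported here.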

Additional observations from a re-analysis of the deposited data

How the results depend on the processing

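The count of autophagy genes past the threshold was 0 with DESeq2 size factors, upper-quartile factors, the filter at 10 CPM in 2 libraries and the replicate block (edgeR, with 6 or 7 at an unadjusted p under 0.05). It was 1 with total counts only (Sqstm1, adjusted p = 0.0491), 2 with no filter on low counts and 2 with DESeq2 (Sqstm1 and Gabarap each time; 8 genes had no adjusted p in DESeq2), and 5 with limma-voom (Sqstm1, Gabarap, Atg3, Rb1cc1 and Bnip3), which had 11 at an unadjusted p under 0.05. With single libraries left out, the count past the threshold ranged from 0 to 12 and that at an unadjusted p under 0.05 from 1 to 15. The median log2 fold change ranged from -0.0647 to 0.1917 there and from 0.04 to 0.12 under the other alternatives. Over all genes the number past the threshold was 111, and 363 with no filter, 219 with DESeq2, 691 with limma-voom and 73 to 2420 with single libraries left out. Further pathway genes past the threshold numbered 3 with limma-voom and 0 to 11 with single libraries left out. The share of all genes past the threshold was 1.4% in the edgeR fit of all 4 libraries and 8.69% with limma-voom. With single libraries left out it ranged from 0.827% to 27.4%. The latter was without WT replicate 1, where the 12 autophagy genes and 11 further pathway genes passed. At an unadjusted p under 0.05 the shares were 12.1%, 23.9% and 5.09% to 39.4%, in the same order. The cause of these shifts was not tested.

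Of 394 values of single autophagy genes under the alternatives, 365 kept their sign, and 20 of 33 genes kept it throughout. The 13 others were not past the threshold where the sign turned. Becn1 turned positive with DESeq2 size factors (0.0026), total counts only (0.0072), no filter (0.016), limma-voom (0.14) and the replicate block (0.0041). Nbr1 turned negative with upper-quartile factors (-0.0028), the 10 CPM filter (-0.0062), limma-voom (-0.0279) and the replicate block (-0.0235). Limma-voom also turned Atg13 (0.0505) and Bnip3l (-0.27), and the replicate block Atg5 (0.077). With single libraries left out, the value ranged from -0.43 to 0.26 for Atg13, -0.26 to 0.32 for Becn1, -0.0666 to 0.38 for Pik3r4, -0.19 to 0.35 for Ambra1, -0.081 to 0.43 for Atg9a, -0.32 to 0.14 for Atg2a, -1.33 to 0.59 for Wipi2, -0.73 to 1.07 for Atg5, -0.30 to 0.52 for Atg12, -0.25 to 0.81 for Atg4c, -0.70 to 0.45 for Gabarapl1, -0.33 to 0.31 for Nbr1 and -0.68 to 2.67 for Bnip3l. With the replicate block no autophagy gene moved past the adjusted threshold, and Ulk1 no longer had an unadjusted p under 0.05 (0.0546). The scalings moved the median of all genes by less than 0.1 on the log2 scale.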
